A study of Aspergillus nidulans with 24 samples.

Results

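The 7 genes described here serve the use of amides, lactams and γ-aminobutyric acid (GABA) as nitrogen sources in Aspergillus nidulans, a filamentous fungus. They are amdR, amdS, gatA, gabA, lamA, lamB and fmdS, taken by symbol from a table of 8728 genes, and all 7 were found there once each. RNA came from mycelium, with 2 strains and 4 media making 8 groups of 3 biological replicates, 24 libraries in total. The areB deletion strain had Aspergillus fumigatus pyrG (A.f. pyrG) in place of areB and also carried pyrG89, argB2, nkuA deleted with argB, pabaB22 and riboB2. The control strain, called wild type below, was areB+ and carried biA1 alone. Each genotype was 1 strain, so the areB deletion and the other alleles cannot be told apart for any gene. Cultures of both strains grew for 9 to 11 h at 37 °C on minimal medium with either a sugar that leaves the use of other carbon sources unrepressed, 0.1% fructose, or a repressing one, 1% glucose. Nitrogen came either from urea (5 mM), the non-repressing source, or from ammonium tartrate (10 mM), the repressing source. Kind and amount of sugar cannot be told apart, nor can kind and amount of nitrogen source, nor ammonium and tartrate. The labels name no amide, lactam or GABA in any medium.

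As background, fungi break amides, lactams and ω-amino acids down to ammonium, which is then built into glutamate and glutamine. In Aspergillus nidulans the zinc cluster activator AmdR (also called IntA) responds to ω-amino acids and switches on the genes of acetamide, GABA and lactam use. Such genes are also under the GATA factor AreA, which acts when preferred nitrogen sources are scarce, and amdS additionally under the carbon repressor CreA, the acetate regulator FacB and the CCAAT-binding complex. AreB is a second GATA factor, known as a regulator of nitrogen use. Formamidase, the enzyme assigned to fmdS in the fungal literature, releases ammonium and formate from formamide and is not part of the AmdR group.

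Levels below are normalized counts, averaged by the authors over the libraries of a group, which are comparable between groups for 1 gene but not between genes. The means carry no error in the table, and total counts per library were not used here, so an order of levels below is one of means whose spread is not known. Deletion effects are the log2 fold changes that the authors gave for the deletion strain over the wild type within a medium, with a standard error recovered from the adjusted p after ±. Where none could be recovered on glucose, the error was borrowed from the gene's other media. The table listed areB and nkuA at 0 in all 4 deletion groups, with wild type means from 67.9 to 93.9 for areB and from 103 to 137 for nkuA. The sums of all group means lay between 2.75e+06 and 3.01e+06. All 5 of 5 hyphal genes were measured, with summed means from 7276 to 11596 over the groups, of which gpdA alone had 4600 to 8840. The 5 conidiation genes measured had summed means from 106 to 188. Among them brlA reached at most 5.35, wA 43.4 and yA 123. Since levels are not comparable between genes, these sums do not give shares of tissue. Of 4 genes of sexual tissue 3 were measured, with summed means from 180 to 1148, in which esdC reached 997 and mutA at most 13.7, both in the wild type on fructose–urea. In bulk RNA, fewer expressing cells and less RNA per cell cannot be told apart.

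Among the 7 genes the 1 difference between strains that passed the authors' test was a rise of lamB in the deletion strain on fructose–urea. The acetamidase gene amdS had means more than 3 times as high in the deletion strain in both fructose media, a difference that did not pass. The gene fmdS had its highest mean, 306, in the wild type on fructose–urea, but the table gave it no adjusted p. Between sugars, amdS, gatA, gabA and the regulator gene amdR were higher on fructose than on glucose in both strains and with both nitrogen sources, whereas lamA was lower on fructose in 3 of 4 such comparisons.

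**Figure D1:**
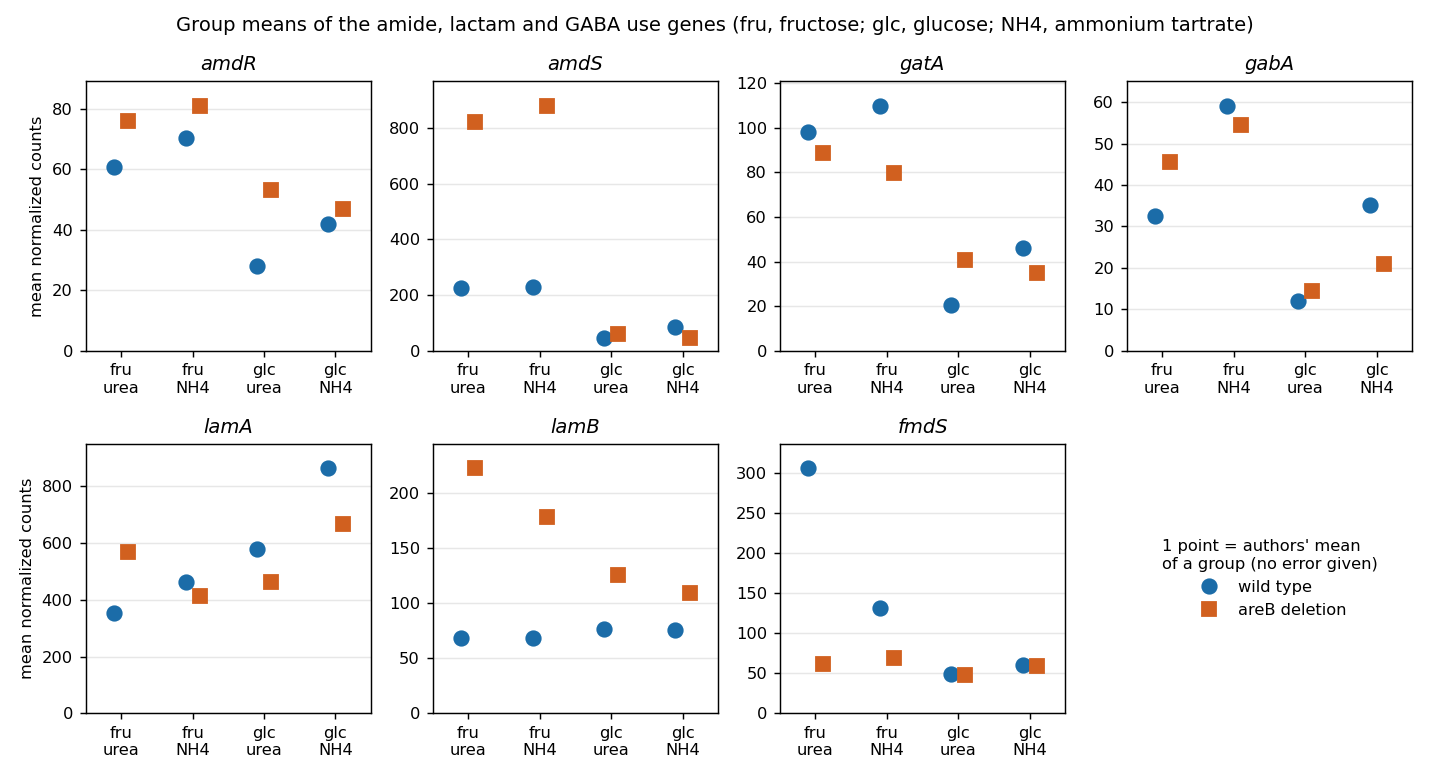
Authors' mean normalized counts (vertical axes, linear, from 0, scaled per gene) of the 7 genes in the 4 media (horizontal axes), with circles for the wild type and squares for the areB deletion strain; each point is 1 group mean of 3 libraries and has no error. The amdS squares reach 821 and 881 on fructose against 225 and 227 for the circles, and fmdS has 1 high point, 306.

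The regulator gene amdR, on chromosome II in the RefSeq assembly ASM1142v1, encodes the activator named above. Its means in the wild type were 60.9 on fructose–urea, 70.4 on fructose–ammonium, 28.0 on glucose–urea and 41.8 on glucose–ammonium. In the deletion strain they were 76.1, 81.1, 53.2 and 46.8 in the same order. All 4 fructose means thus lay above all 4 glucose means, which was also so for amdS, gatA and fmdS and for 20% of 7759 genes that averaged at least 10 over the groups. The highest mean of amdR was 2.90 times the lowest. Its log2 fold changes in the authors' deposited table were 0.31 ± 0.42, 0.21 ± 0.42, 0.84 ± 0.43 and 0.14 ± 0.43 in that order of media. By the authors' deposited table the adjusted p was lowest on glucose–urea, at 0.65, where the 95% interval ran from -0.0041 to 1.68. Neither a small effect nor one of about 3-fold is outside that interval.

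The acetamidase gene amdS, on chromosome III, encodes the enzyme that splits acetamide into ammonium and acetate. Its wild type means were 225 on fructose–urea, 227 on fructose–ammonium, 44.4 on glucose–urea and 86.7 on glucose–ammonium. The deletion strain had 821, 881, 59.5 and 45.8. In order of level, both fructose groups of the deletion strain stood first, both fructose groups of the wild type next, and the 4 glucose groups last, with a highest mean 19.8 times the lowest. The ratio of the means of the strains was 3.65 on fructose–urea and 3.87 on fructose–ammonium. The authors' deposited table gave smaller effects, log2 fold changes of 1.26 ± 0.79 and 1.32 ± 0.79, against 1.86 and 1.95 from the means, with adjusted p of 0.60 and 0.51. The intervals ran from -0.29 to 2.81 and from -0.23 to 2.87, so neither no effect nor a rise of 4-fold is outside them. On glucose the log2 fold changes in the authors' deposited table were 0.19 ± 0.79 with urea and -0.44 ± 0.79 with ammonium, both with an adjusted p of 1. Both of these errors were borrowed from the fructose media. The standard error of amdS was the largest among the 6 genes that had one.

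GABA use was represented by gabA, which encodes the permease that takes GABA up, and gatA, which encodes the transaminase that removes its amino group. The gene gabA, on chromosome VI, had wild type means of 32.6 on fructose–urea, 59.2 on fructose–ammonium, 11.9 on glucose–urea and 35.2 on glucose–ammonium. The deletion strain had 45.5, 54.4, 14.4 and 20.8. In each strain and on each sugar, gabA was thus higher with ammonium than with urea. The gene gatA, on chromosome VII, had wild type means of 97.9, 110, 20.6 and 45.9 in the same order of media, and means of 88.6, 79.7, 40.9 and 34.9 in the deletion strain. Every fructose mean of gatA lay above every glucose mean. The log2 fold changes of gabA in the authors' deposited table ran from -0.58 ± 0.68 on glucose–ammonium to 0.38 ± 0.69 on fructose–urea. Those of gatA ran from -0.32 ± 0.76 on fructose–ammonium to 0.61 ± 0.75 on glucose–urea in the authors' deposited table. No adjusted p of either gene was under 0.93 in the authors' deposited table, and each interval took in 0.

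Lactam use was represented by lamA and lamB, both needed in this fungus for growth on 2-pyrrolidinone, the lactam that yields GABA. The table describes lamA as a putative urea amidolyase and gives lamB only a role in 2-pyrrolidinone use. They are next to each other on chromosome VIII in the RefSeq order, but their levels over the groups did not run together. The means of lamB in the wild type stayed within 68.0 to 76.6 over the 4 media. In the deletion strain they were 222 on fructose–urea, 178 on fructose–ammonium, 125 on glucose–urea and 109 on glucose–ammonium. All 4 deletion groups of lamB lay above all 4 wild type groups, which held for no other of the 7 genes and for 6.53% of 7759 genes that averaged at least 10 over the groups. On fructose–urea lamB rose by 1.60 ± 0.41 on the log2 scale (adjusted p 0.0080) in the authors' deposited table, 3.03-fold, with an interval from 0.80 to 2.40. On fructose–ammonium it stood at 1.29 ± 0.41 (adjusted p 0.062), on glucose–urea at 0.66 ± 0.41 (adjusted p 0.90) and on glucose–ammonium at 0.48 ± 0.41 (adjusted p 1), all by the authors' deposited table.

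The wild type means of lamA were 354 on fructose–urea, 463 on fructose–ammonium, 578 on glucose–urea and 864 on glucose–ammonium. The deletion strain had 569, 415, 463 and 667. The highest mean of lamA was on glucose–ammonium in each strain, and its range, 2.44-fold, was the narrowest of the 7. The log2 fold change in the authors' deposited table was 0.64 ± 0.40 on fructose–urea (adjusted p 0.60). In the other media the authors' deposited table gave values from -0.35 ± 0.40 to -0.15 ± 0.40, and the adjusted p was 0.948 on fructose–ammonium and 1 on glucose.

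The gene fmdS, on chromosome III, carries a formamidase symbol, while the table describes it as a putative kynurenine formamidase with a predicted role in aromatic amino acid synthesis. Its wild type means were 306 on fructose–urea, 131 on fructose–ammonium, 49.4 on glucose–urea and 61.0 on glucose–ammonium. The deletion strain had 61.1, 69.4, 48.5 and 59.2. The wild type stood above the deletion strain in both fructose media, while on glucose the strains lay within 1.03-fold of each other. The log2 fold changes in the authors' deposited table were -2.00, -0.78, -0.03 and -0.04, with no error that could be recovered. The gene is 1 of 89, or 1.02% of the table, without an adjusted p in any medium. DESeq2, the tool named in the submitters' processing notes, is known to withhold a p where a library stands far from the rest. Whether 1 library set the mean of 306 was not tested, since values per library were not used here. The summed means of the 3 sexual tissue genes measured, of 4 listed, were likewise highest in the wild type on fructose, at 1148 with urea and 695 with ammonium, against 180 to 277 in the other 6 groups. Of these, esdC had 997 and 490 in the same groups and 31.1 to 73.3 in the others, nsdD had its lowest mean, 137, on fructose–urea in the wild type, and mutA was listed at 0 in 2 groups. The part of such tissue in the level of fmdS was not tested.

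The table describes usgS, the gene next to fmdS, as a transcript that overlaps the 5′ coding sequence of fmdS and interferes with its transcription. Reads of the overlap may affect the counts of both genes. The sources used here do not say how such reads were counted or whether the counting used strand. The means of usgS in the wild type were 86.7 on fructose–urea, 105 on fructose–ammonium, 52.2 on glucose–urea and 92.5 on glucose–ammonium. The deletion strain had 76.6, 88.2, 60.6 and 88.4. The authors' deposited table gave usgS log2 fold changes from -0.23 to 0.21 and adjusted p from 0.807 to 1. The part of usgS in the level of fmdS was not tested.

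**Figure D2:**
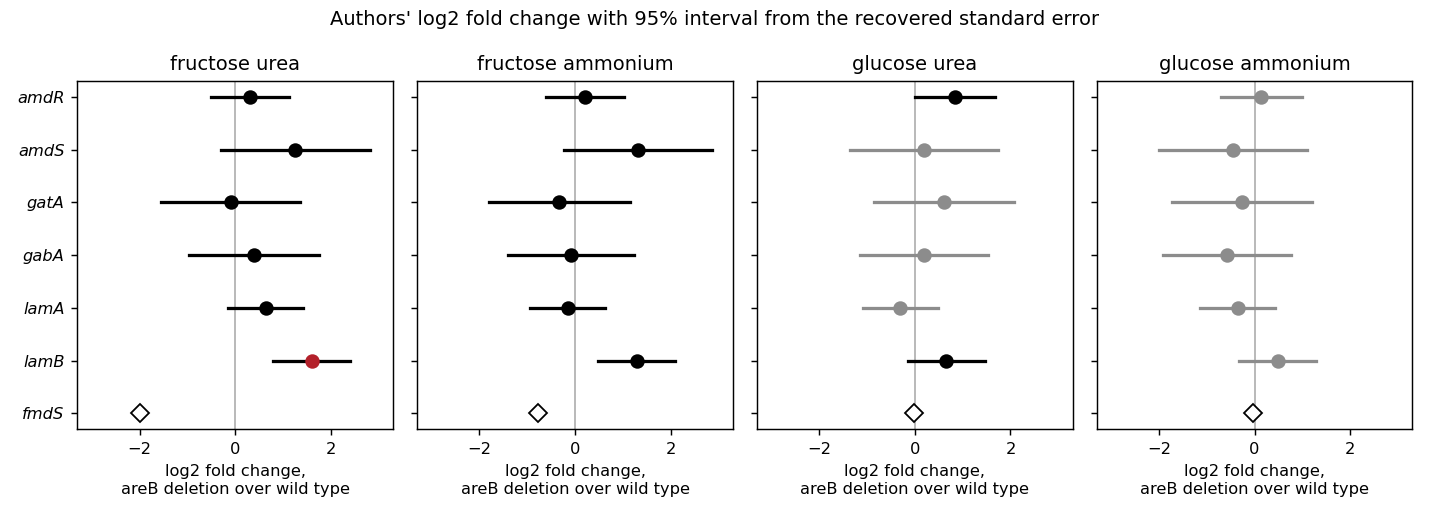
Authors' log2 fold change of the deletion strain over the wild type (horizontal axes) for the 7 genes (vertical axis) in each medium, with lines for the 95% interval from the recovered standard error; grey marks an error borrowed from another medium, the red point an adjusted p under 0.05 and open diamonds a gene with no error. The point of lamB on fructose–urea, 1.60, is the 1 in red, and fmdS lies at -2.00 there.

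Over the group, 1 of the 6 genes with an adjusted p was called on fructose–urea, lamB, and it was higher. Of all 8639 genes with an adjusted p in that medium, 0.833% were called higher and 2.22% in either direction. None of the 6 was called on fructose–ammonium, glucose–urea or glucose–ammonium, where 2.51%, 1.88% and 1.91% of genes were called. A gene counted as called when the authors' adjusted p was under 0.05. The median log2 fold change of the 7 genes was 0.38, -0.08, 0.19 and -0.26 in that order of media from fructose–urea on, against -0.04, -0.04, 0.00 and -0.02 over all genes. The number of the 7 above 0 was 5, 3, 5 and 2, against 47.1%, 47.6%, 49.95% and 47.2% of all genes.

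Whether the deletion effect depended on the medium was tested as the difference of log2 fold changes, 2-sided, with Benjamini-Hochberg adjustment over 8627 genes. For amdS the effect on fructose minus that on glucose was 1.07 ± 1.12 with urea (adjusted p 1.00, interval -1.13 to 3.26) and 1.77 ± 1.12 with ammonium (adjusted p 1.00, interval -0.42 to 3.96). For lamB it was 0.94 ± 0.58 with urea (interval -0.20 to 2.07) and 0.80 ± 0.58 with ammonium (interval -0.33 to 1.94). For lamA it was 0.94 ± 0.57 with urea (interval -0.17 to 2.05). None of the 6 genes passed in any of 4 such differences, 2 between sugars and 2 between nitrogen sources. None had an unadjusted p under 0.05 either, and the lowest was 0.096, that of lamA. No gene of the table passed these tests, in which 54 to 248 genes had an unadjusted p under 0.05. The rise of lamB on fructose–urea is therefore not shown to differ from its effect in the other media, and fmdS could not be tested. Those 54 to 248 genes are fewer than a share of 0.05 of the 8627, the number looked for if no effect differed. The tests were thus strict, and a gene that did not pass is not shown to have the same effect in both media.

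The sugars were compared within each strain by the ratio of group means, each plus 1, with no test, since no error of a mean was given. In the wild type with urea, 5 of 7 genes were at least 2-fold higher on fructose than on glucose, as were 23.6% of all genes, and none was 2-fold lower, as were 7.75%. The ratio was 6.09 for fmdS, 4.98 for amdS, 4.58 for gatA, 2.61 for gabA and 2.13 for amdR. The lactam genes went the other way, with glucose over fructose at 1.63 for lamA and 1.12 for lamB. In the wild type with ammonium, 3 of 7 were 2-fold higher on fructose, against 17.9% of all genes, namely amdS at 2.60, gatA at 2.36 and fmdS at 2.14, while amdR stood at 1.67 and gabA at 1.66.

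In the deletion strain 3 of 7 genes were at least 2-fold higher on fructose than on glucose–urea, against 11.9% of all genes, and 3 of 7 with ammonium, against 11.8%. In both cases these were amdS, gatA and gabA. The ratio for amdS was 13.6 with urea and 18.8 with ammonium, that for gatA was 2.14 and 2.24, and that for gabA 3.02 and 2.54. The gene fmdS stood at 1.25 with urea and 1.17 with ammonium, where the wild type had 6.09 and 2.14. The gene lamB, level between sugars in the wild type, stood at 1.77 and 1.63 in the deletion strain. For amdS and lamB the tests of the difference above apply, and neither passed. For fmdS the difference was not tested.

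**Figure D3:**
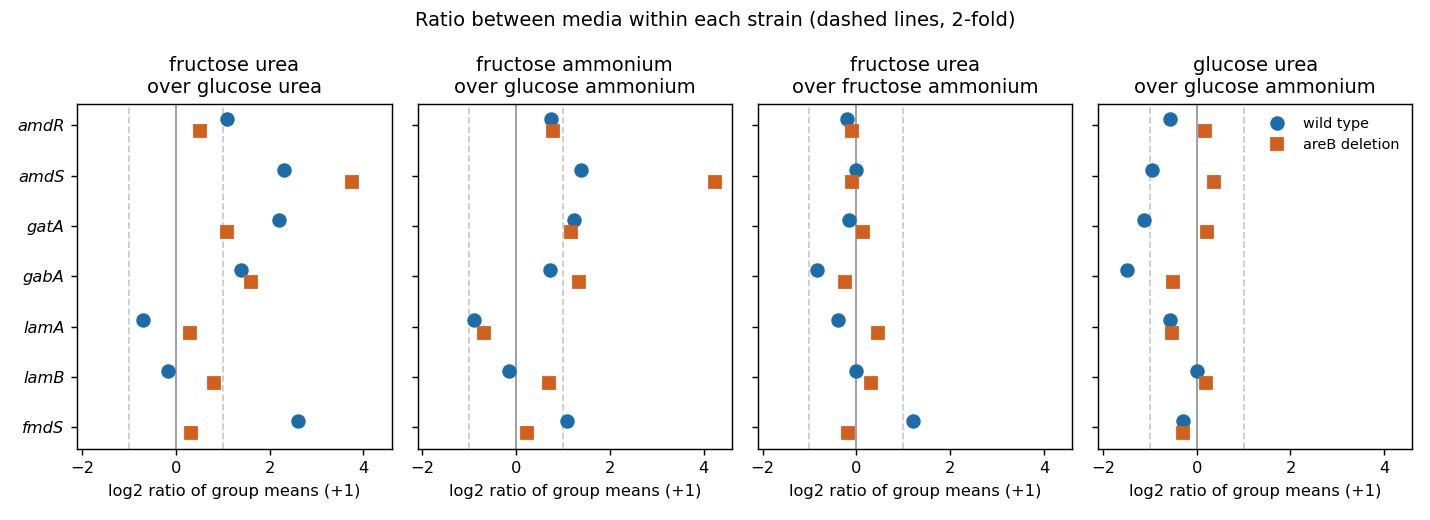
Log2 ratio of group means, each plus 1 (horizontal axes), between 2 media within the wild type (circles) and the areB deletion strain (squares) for the 7 genes (vertical axis); dashed lines mark 2-fold and no errors are available. In the panels of fructose over glucose the amdS squares lie at 3.76 and 4.23, and in those of urea over ammonium no square passes a dashed line.

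The nitrogen sources were compared in the same way. In the wild type on fructose, 1 of 7 was at least 2-fold higher with urea than with ammonium, against 6.48% of all genes. It was fmdS, at 2.32-fold. The level of amdS was 225 with urea against 227 with ammonium, and that of lamB 68.0 against 68.2. In the wild type on glucose none was 2-fold higher with urea, against 1.78% of genes, and 2 were 2-fold lower, against 4.78%. These were gabA, 2.81-fold lower, and gatA, 2.17-fold lower, and amdS was 1.93-fold lower with urea. In the deletion strain no gene of the 7 differed 2-fold between nitrogen sources on either sugar, against 3.2% of all genes in either direction on fructose and 4.29% on glucose. Its log2 ratios of urea over ammonium lay between -0.25 and 0.46 on fructose and between -0.53 and 0.37 on glucose. Thus amdS, gatA and amdR had lower means with urea than with ammonium in the wild type on glucose and higher ones in the deletion strain on glucose. That turn is the difference in deletion effect between the glucose media, tested above and not passed, at 0.64 ± 1.12 for amdS, 0.86 ± 1.06 for gatA and 0.69 ± 0.61 for amdR.

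Over the 8 group means on a log2(mean + 1) scale, amdR, amdS, gatA and gabA ran alike, with Pearson's r from 0.80 to 0.90 over their 6 pairs and Spearman's rho from 0.71 to 0.93. The coefficient between amdR and gatA was 0.90. The gene lamA ran against or apart from the other 6, with r from -0.61 to -0.05, and r between the neighbours lamA and lamB was -0.05. The gene fmdS had its highest r with gatA, 0.67, and lamB its highest with amdS, 0.57. These coefficients describe 8 group means that share media and strains, so they are not independent points.

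**Figure D4:**
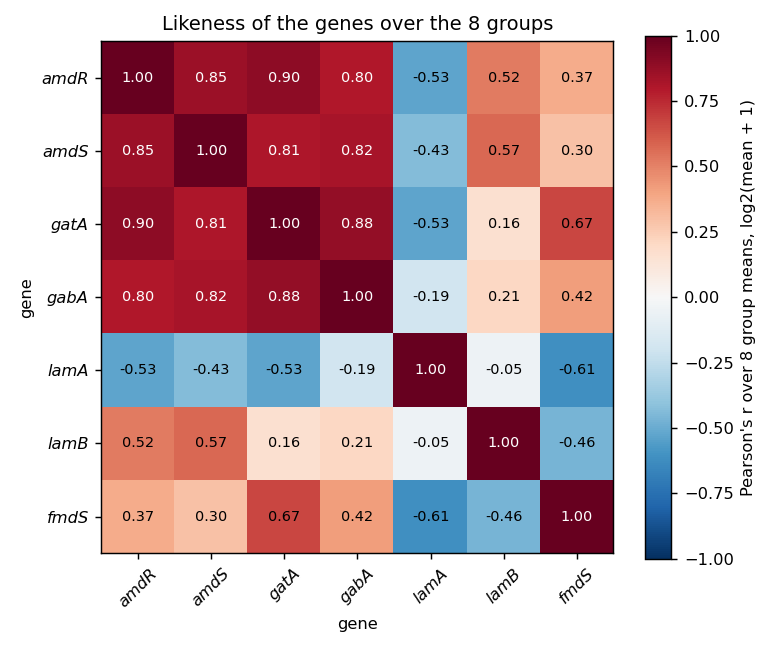
Pearson's r between each pair of the 7 genes (both axes) over the 8 group means on the log2(mean + 1) scale, from -1 in blue to 1 in red. The 4 genes amdR, amdS, gatA and gabA form a block of 0.80 or more, and lamA is below 0 with every other gene.

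The genes with a symbol whose means ran most like each of the 7 were taken from 7758 genes with a mean of at least 10. For gabA the closest with a symbol was aciA, a putative formate dehydrogenase gene, at r = 0.96, followed by hstA and ampA at 0.96. For amdS they were creB at 0.947, pmeB at 0.946 and mcdA at 0.944. For fmdS they were bglB at 0.99, stk51 at 0.98 and phacB at 0.97. For gatA they were cla4 at 0.99, mesA at 0.98 and CYP539D1 at 0.97, and for amdR dfgD at 0.97, chkC at 0.97 and larA at 0.96. For lamB they were ssz1 at 0.9496, sudA at 0.94 and fabM at 0.94, and for lamA taf30 at 0.93, nimX at 0.92 and apdA at 0.90. Counting genes without a symbol, 63 had an r of at least 0.95 with gatA, 61 with fmdS, 28 with amdS and 1 with lamA.

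Of 12 genes that encode known regulators of these pathways, areB passed the authors' test in each of the 4 media. As areB is the deleted gene, that outcome was fixed in advance. None of the other regulator genes passed in any medium, where 1.88 to 2.51% of all genes were called. The median log2 fold change of the 12, areB included, was -0.35, -0.59, 0.02 and -0.12. The acetate regulator gene facB stood at -0.50 and -0.65 on fructose–urea and with ammonium in the authors' deposited table (adjusted p 0.78 and 0.60). On glucose facB stood at 0.19 with urea and 0.18 with ammonium. The CCAAT-binding subunit gene hapC, next to amdR in the RefSeq order, stood at 0.26 on fructose–urea by the authors' deposited table (adjusted p 0.86). On fructose–ammonium hapC stood at 0.45 (adjusted p 0.59 by the authors' deposited table). The other subunit genes listed went the other way in these media, with hapB at -0.58 and -0.85 and hapE at -0.36 and -0.46. The carbon repressor gene creA was the 1 regulator gene past 4-fold between sugars in the wild type, with means of 302 on fructose and 42.1 on glucose–urea, and 411 and 62.1 with ammonium. The share of all genes past 4-fold was not counted. In the deletion strain creA had 88.2 and 72.9 on fructose, and on glucose 64.4 with urea and 50.6 with ammonium. Its log2 fold change by the authors' deposited table was -1.45 on fructose–urea (adjusted p 0.30) and -2.04 on fructose–ammonium (adjusted p 0.058), so neither passed. Within each strain creA and amdS both had higher means on fructose than on glucose. Between strains on fructose they went opposite ways, with creA lower and amdS higher in the deletion strain, and neither gene passed. A link between them was not tested.

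Among genes that use the products acetate, formate, ammonium and glutamate, 5 of 6 symbols were measured. None of them passed in any medium, where 1.88 to 2.51% of all genes were called. The acetyl-CoA synthetase gene facA had wild type means of 3878 on fructose and 638 on glucose–urea. The gene aciA had wild type means of 800 on fructose–urea, 1855 on fructose–ammonium, 98.5 on glucose–urea and 740 on glucose–ammonium. Of 12 other genes of amide, urea and amino acid use 9 were measured, and 1 rose and 1 fell, both on fructose–urea, where 2.22% of all genes were called. By the authors' deposited table these were the urease system gene ureB, at 1.28 ± 0.33 (adjusted p 0.0080), and the proline dehydrogenase gene prnD, at -3.59 ± 0.80 (adjusted p 0.0010). Past 4-fold between media in the wild type were agaA and otaA of arginine breakdown, prnB, prnC and prnD of proline use and the urea transporter gene ureA. The ornithine transaminase gene otaA, for example, had 2317 on fructose and 232 on glucose–urea, and ureA had 227 with urea and 3.03 with ammonium on glucose. The share of all genes past 4-fold was not counted. At 2-fold, 4 of the 9 were higher on fructose than on glucose–urea in the wild type, against 23.6% of all genes. In the wild type on fructose 6 of these 9 were 2-fold higher with urea than with ammonium, against 6.48% of all genes. The amidase gene gmdA stood at 0.94 (adjusted p 0.65) and 0.90 (adjusted p 0.64) on fructose–urea and with ammonium in the authors' deposited table, above 0 as amdS was. On glucose gmdA stood at 0.61 with urea and 0.44 with ammonium, where amdS stood at 0.19 and -0.44.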

How the data were processed

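Mycelial RNA was freed of ribosomal RNA, and libraries made with 14 cycles of amplification were sequenced from both ends (100 bp each), per the labels' protocols. The submitters' processing notes name DESeq2 1.16.1, HTSeq 0.9.1, GATK, Trimmomatic and FastQC. The sources used here do not give the aligner, genome build or annotation, so no coordinates are printed, and chromosomes and neighbours are those of RefSeq assembly ASM1142v1. The deposited table holds, per the file headers, the authors' fold change, a linear ratio with the deletion strain on top, the authors' adjusted p-value and, as the authors' signal, the mean of normalized counts of each group. Values per library were not used here.

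The Benjamini-Hochberg adjustment was inverted to get back the p behind each deposited adjusted p, and the log2 fold change divided by the normal deviate of that p gave its standard error, where ties left the deviate within 10% (SciPy 1.17.1). Otherwise the error was borrowed from the gene's other media, the same sugar first, as for 10 of the 24 values here. Errors recovered in 2 media agreed within 0.1 for 99.4 to 100% of the genes that had both. Those were 8073 genes for the 2 fructose media, but 665 to 1270 for pairs with a glucose medium. Genes with a borrowed error on glucose are not covered by that check. The recovery was tested on simulated data. Media were compared within a strain by ratios of group means with a pseudocount of 1. Genes and lists were chosen with earlier results of these data known. Named were the 7 genes, listed pathway genes that passed or changed 4-fold between media, and the 3 genes with a symbol most like each member. The genes facB, hapB, hapC, hapE, gmdA, usgS and other neighbours were named after their values were seen. Of 30 pathway symbols 26 were matched, and gdhB, ureC, sarA and sarB were not. Alternatives were other thresholds, pseudocounts, scalings and filters on low means.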

Additional observations from a re-analysis of the deposited data

How the results depend on the processing

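The counts of the 7 genes were recomputed under other thresholds, filters, pseudocounts and scalings, 68 times in all, and 65 stayed within 1.5 times of the reported count. Many of these were counts of 0 that stayed 0, some of which a stricter threshold could not change. A fall from 3 to 2 also lay within that limit, so the 65 do not measure how firm the counts are. With an adjusted p under 0.1 in place of 0.05, 1 gene, lamB, was called on fructose–ammonium, where none was. With a pseudocount of 10, 3 genes in place of 5 passed 2-fold for fructose over glucose in the wild type with urea, and 1 in place of 2 for urea against ammonium in the wild type on glucose. For fructose over glucose it was also 2 in place of 3 in the wild type with ammonium and in the deletion strain with either nitrogen source. The call of lamB on fructose–urea held with a threshold of 0.01, with a log2 fold change of at least 1, over genes with a mean of at least 10, and with the deviates divided by their robust SD. None of the 6 genes that could be tested passed for a difference in deletion effect between media under any setting run, and fmdS could not be tested. The plain log2 ratio of means kept the sign of the deposited fold change in 28 of 28 values and lay within 1 recovered standard error of it in the 24 that had one. For fmdS on fructose–urea the plain ratio was -2.31, against -2.00. Which genes ran most like a member depended on the measure: with Spearman's rho 0 of the 3 named for amdS and for fmdS remained. No paired analysis was possible because the table holds group means, and leaving out each replicate was not run for the same reason. Depth per library is unknown here, and 10 of the 24 errors are borrowed, which limits all statements on glucose.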

Other observations

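The neighbours of the 7 genes in the RefSeq order, up to 2 places on each side, were 22 other genes of the table. On fructose–ammonium 1 of them was called higher and 2 lower, where 2.51% of all genes were called. On glucose–ammonium 1 was called lower, where 1.91% of all genes were called, and none was called in either urea medium. The gene AN2961, at 2 places from gabA and with orthologs in mRNA polyadenylation, rose by 1.87 on the log2 scale on fructose–ammonium (adjusted p 0.036 by the authors' deposited table), where its means were 84.7 for the wild type and 379 for the deletion strain. The gene AN10370, with a predicted oxidoreductase domain and next to gabA, fell there by 1.01 (adjusted p 0.046 by the authors' deposited table), while gabA itself stood at -0.08. Near fmdS, AN4575 fell by 1.78 on fructose–ammonium (adjusted p 0.0017) and by 1.98 on glucose–ammonium (adjusted p 0.00023), both by the authors' deposited table. Its wild type mean on glucose–ammonium was 1356 and its deletion mean 310. The genes beside lamB, AN0885 and lamA, did not pass in any medium.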
